A study of Mus musculus with 8 samples.

Results

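The miRs described here are those encoded in the imprinted Dlk1-Dio3 region of mouse chromosome 12. They were chosen by name from a list of 45 mature miRs, and 44 of these names had a row among the 1755 miRs of the count table; miR-487b-3p was not analysed here. Small RNA was sequenced from extracellular vesicles (EVs), the membrane-bound particles that cells release, in 4 libraries from oxidative muscle (OXI-EV, the soleus with the red parts of the gastrocnemius) and 4 from glycolytic muscle (GLY-EV, the whole quadriceps). All came from untreated, unmodified male C57BL/6J mice, bought at 10 to 12 weeks of age. Muscle of a single leg per animal was kept unpooled for 24 h in medium without serum, and EVs were separated from that medium by ultrafiltration and size exclusion, so a library may hold vesicles of any cell type in the excised muscle, and their sources were not separated.

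Imprinted genes are expressed from the chromosome of 1 parent. In this region the protein genes Dlk1, Rtl1 and Dio3 are expressed from the paternal chromosome, whereas the noncoding RNAs Meg3, Rian and Mirg and the miRs that lie within and between them are expressed from the maternal chromosome. The locus is known in muscle from the callipyge sheep, in which a mutation between DLK1 and MEG3 enlarges the muscles of the hindquarters, and from mouse myogenic cells, in which the transcription factor MEF2A drives the miRs of the region. A miR hairpin is cut into a duplex of a 5p and a 3p arm, of which usually 1 is retained to repress mRNAs that pair with its seed, bases 2 to 8.

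The sequences printed here are those on which the results turn: the 5 members with a mean count of at least 100, then the arms of the Mir411 hairpin and the 3p arm of its neighbour Mir379. Of the 44 members, 42 were matched by name in the RefSeq miRNA table of GRCm38.p6. Each is printed 5′ to 3′ with the seed in capitals.

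mmu-miR-127-3p: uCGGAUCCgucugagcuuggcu
mmu-miR-434-3p: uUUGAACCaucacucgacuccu
mmu-miR-379-5p: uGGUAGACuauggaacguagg
mmu-miR-382-5p: gAAGUUGUucgugguggauucg
mmu-miR-541-5p: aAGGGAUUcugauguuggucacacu
mmu-miR-411-5p: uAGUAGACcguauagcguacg
mmu-miR-411-3p: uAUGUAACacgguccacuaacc
mmu-miR-379-3p: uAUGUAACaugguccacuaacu

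The 42 matched members had 41 distinct seeds, so the cluster is a family by position and not by seed. The 1 shared seed, AUGUAAC, was that of miR-411-3p and miR-379-3p, which differed by C10U and C22U (base of miR-411-3p, position from its 5′ end, base of miR-379-3p). The seed of miR-379-5p was shared with miR-1193-5p of the same table. Among the other near copies, miR-300-3p differed from miR-381-3p by A4G, G21U and U22C, and miR-376b-3p from miR-376a-3p by G4A, A13C and G20U. How the authors' counting treated reads that fit more than 1 miR is not given in the sources used here, so the counts of these pairs are uncertain.

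The hairpins of these miRs other than Mir382 and Mir541 are printed next, from the same RefSeq table, with both mature arms in capitals.

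Mir127: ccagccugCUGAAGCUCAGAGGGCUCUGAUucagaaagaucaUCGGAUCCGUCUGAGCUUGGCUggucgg
Mir434: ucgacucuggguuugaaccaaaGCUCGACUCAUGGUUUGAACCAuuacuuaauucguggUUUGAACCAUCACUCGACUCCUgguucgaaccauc
Mir379: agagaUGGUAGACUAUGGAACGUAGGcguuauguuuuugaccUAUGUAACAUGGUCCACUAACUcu
Mir411: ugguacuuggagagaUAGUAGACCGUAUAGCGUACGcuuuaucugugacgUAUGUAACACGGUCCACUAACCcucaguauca

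The 44 members came from 35 hairpins, all on the plus strand within chr12:109585789-109743795 of GRCm38, 158.01 kb in all. The first block, here called the Rtl1 block, held 8 hairpins from Mir337 to Mir136 within chr12:109585789-109595388 and 11 members. Its hairpins Mir431, Mir433, Mir127, Mir434 and Mir136 lie in an exon of Rtl1 (chr12:109589193-109600330) on the opposite strand, so that their miRs are fully complementary to the Rtl1 mRNA, which they are known to cleave in mouse. Mir370 (chr12:109618258-109618336) stands alone in an intron of Rian. The third block held 26 hairpins from Mir379 to Mir410 within chr12:109709060-109743795 and 32 members. Its hairpins from Mir382 on lie in exons or introns of Mirg. This block is known to be needed for the metabolic adaptation of newborn mice. The hairpins Mir337, Mir136 and Mir299a each overlap an annotated hairpin on the other strand.

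The depth of the libraries limits what can be read from most members. The authors' table gave 4151145 to 4867396 mapped reads for the OXI-EVs and 5179262 to 7197716 for the GLY-EVs, and the miR counts summed to 348730 to 572106 and 587068 to 1004011. The muscle miRs miR-206-3p, miR-1a-3p and miR-133a-3p were counted in every library and summed to 51886 to 84289 counts per 1000000 mapped reads (CPM) in OXI-EVs and 64485 to 121201 in GLY-EVs. Levels below are CPM unless raw counts are named. The sign of each log2 fold change is that of OXI-EV relative to GLY-EV, so a negative value is a lower level in OXI-EVs. GLY-EV replicate 4 had the fewest miR reads per count, 2.63, and stood high for many members, so values without it are given where they matter. The titles number the libraries 1 to 4 in each group, the replicate numbers used here. The descriptions number the same libraries 1, 3, 4 and 5 in OXI-EVs and 1, 2, 4 and 5 in GLY-EVs. Neither says whether equal numbers share a mouse.

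Members of the cluster were mostly rare in these vesicles. The median of their mean counts over the 8 libraries was 26.7, close to the 22.9 of all 1755 miRs, and 18 of the 44 lay below that median. A mean count of at least 100 was reached by 5 members, miR-127-3p, miR-434-3p, miR-379-5p, miR-382-5p and miR-541-5p, against 7.41% of all miRs (130 of 1755). They ranked between 40 and 84 among all miRs, with mean counts of 473.9, 400.1, 311.3, 192.6 and 174.8. The 2 members next to the split were miR-541-5p above it and miR-411-3p, with 99.5, below it, followed by miR-136-5p with 83.6. Of the 39 members under 100, 32 lay below 40.6, the 75th percentile of all miRs, and the least abundant was miR-495-3p with a mean count of 5.63.

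**Figure D1:**
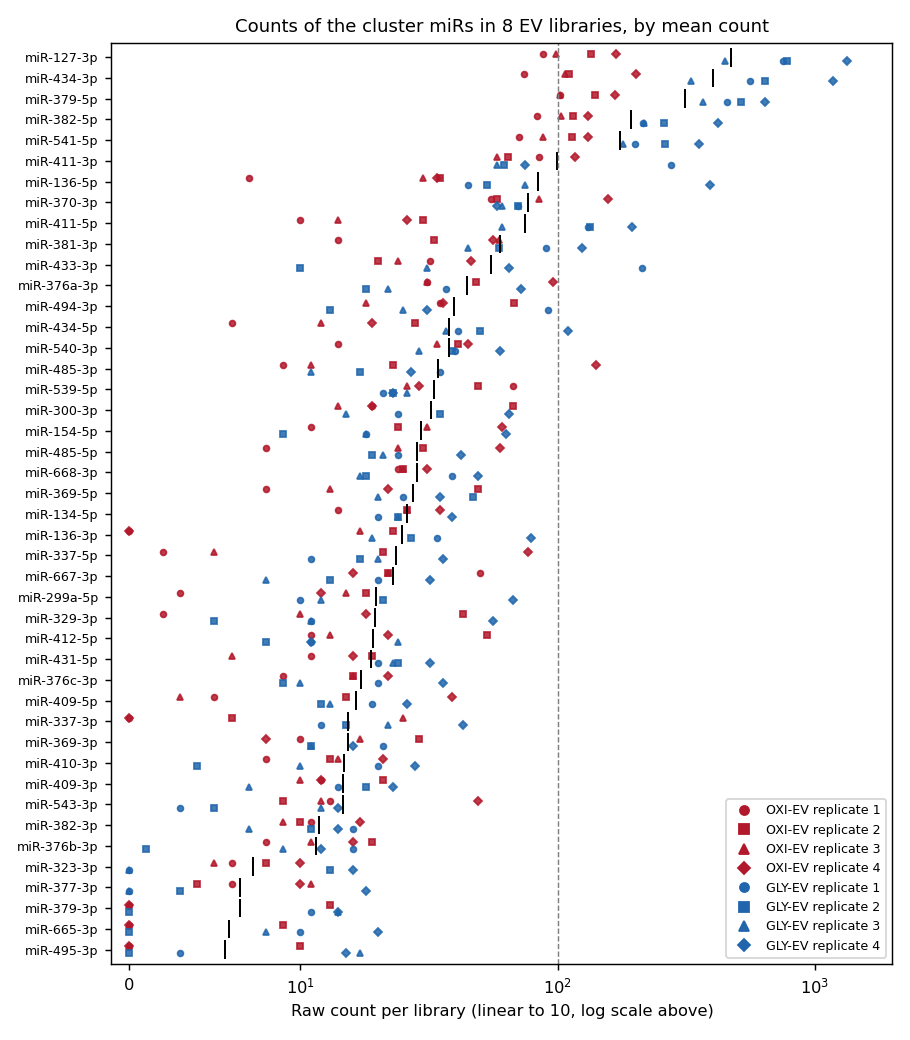
Raw counts of the 44 cluster miRs in 8 EV libraries, ordered by mean count, on an axis that is linear to 10 and logarithmic above. Points are libraries (red OXI-EV, blue GLY-EV, shapes for replicates), black ticks are means over the 8 libraries and the dashed line is at 100; the 5 members above it have their blue points to the right of their red ones.

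The 5 abundant members led in both groups. In OXI-EVs, miR-379-5p led with 28.3 ± 6.60 CPM (SD, n = 4), and the next were miR-127-3p with 27.1 ± 7.45, miR-434-3p with 27.0 ± 10.4, miR-382-5p with 23.9 ± 4.09 and miR-541-5p with 22.4 ± 5.64. Each of these neighbours lay within 1 SD of the next, though within each OXI-EV library miR-379-5p and miR-127-3p were above miR-541-5p in 4 of 4. In GLY-EVs, miR-127-3p led with 137.7 ± 80.1, before miR-434-3p with 113.8 ± 77.0, miR-379-5p with 81.3 ± 28.1, miR-382-5p with 46.4 ± 23.1 and miR-541-5p with 41.2 ± 18.2. The SDs of neighbours overlap here too, but within each GLY-EV library miR-127-3p was above miR-434-3p in 4 of 4 and miR-379-5p above miR-382-5p in 4 of 4. Adapters do not ligate to all miRs equally well, so the order is one of counts. Sixth came miR-370-3p in OXI-EVs (19.3 CPM) and miR-136-5p in GLY-EVs (25.6 CPM), the latter through replicate 4 alone, with 75.3 CPM against 6.50 to 13.1 in the others. Without that library miR-411-3p came sixth (19.6 CPM) and the first 5 kept their order. Over the 44 members, the mean CPM of the groups had a Spearman rho of 0.744, a description over miRs of the same libraries.

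All 5 abundant members had higher values in each GLY-EV library than in any OXI-EV library on the scale of mapped reads, and miR-127-3p was the 1 that passed the test. miR-127-3p, which directs cleavage of the Rtl1 mRNA, had 88, 135, 99 and 168 counts in OXI-EV replicates 1 to 4 and 748, 779, 448 and 1326 in GLY-EV replicates 1 to 4. Its highest OXI-EV library, 34.5 CPM, was below its lowest GLY-EV library, 78.5 CPM. The log2 fold change was -2.34 (SE 0.50, adjusted p = 0.0341 by edgeR's quasi-likelihood test over 1569 miRs), and -1.86 (adjusted p = 0.0403) without GLY-EV replicate 4. The call was kept in 3 of the 8 fits that left out 1 library and lost without OXI-EV replicate 1, 2 or 3 or GLY-EV replicate 1 or 2, with log2 fold changes of -2.54 to -1.86 over the 8.

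miR-434-3p, from the next hairpin on the chromosome and also complementary to Rtl1, had 74, 111, 107 and 202 counts in OXI-EVs and 561, 637, 330 and 1179 in GLY-EVs. The groups did not overlap, with 17.0 to 41.5 CPM against 57.8 to 227.6. Its log2 fold change was -2.07 (SE 0.54, adjusted p = 0.0920 by edgeR), and it passed with TMM scaling at -2.46 (adjusted p = 0.00416). Without GLY-EV replicate 4 it was -1.49 (adjusted p = 0.131).

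miR-379-5p, from the first hairpin of the third block, had 102, 140, 102 and 167 counts in OXI-EVs and 457, 516, 368 and 638 in GLY-EVs. No OXI-EV library reached the level of a GLY-EV library. The log2 fold change was -1.52 (SE 0.44, adjusted p = 0.149 by edgeR), and -1.99 (adjusted p = 0.00600) with TMM scaling.

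The remaining 2 abundant members come from the Mirg end of the block and differed less. miR-382-5p had 83, 115, 103 and 131 counts in OXI-EVs and 215, 259, 216 and 419 in GLY-EVs (log2 fold change -0.95, SE 0.47, adjusted p = 0.369 by edgeR). miR-541-5p had 71, 114, 88 and 131 against 200, 261, 180 and 353 (log2 fold change -0.88, SE 0.47, adjusted p = 0.406 by edgeR). Both had groups that did not overlap on the scale of mapped reads, and both overlapped as a percent of miR counts.

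**Figure D2:**
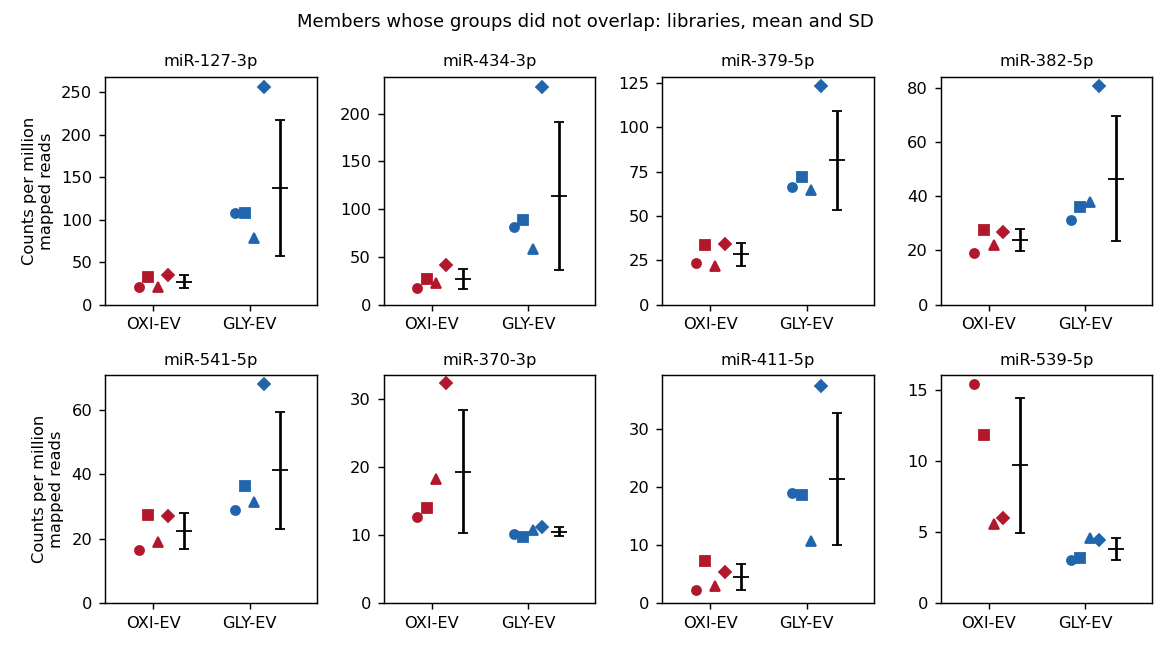
CPM, counts per 1000000 mapped reads, of the 8 members whose groups did not overlap, 1 panel per miR with its own axis from 0. Points are libraries (circle, square, triangle and diamond for replicates 1 to 4), bars are mean ± SD with n = 4; GLY-EV replicate 4 is the highest library for each of the 6 miRs lower in OXI-EVs, and miR-127-3p spans 78.5 to 256.0 CPM in GLY-EVs.

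Of the 40 members with at least 10 counts in at least 4 libraries, 1 passed an adjusted p of 0.05, lower in OXI-EVs, against 1.78% of all miRs tested in that direction, and none was higher. At an unadjusted p under 0.05, 6 members were lower, against 5.42% of all miRs, and 1 higher, against 9.05%. With TMM scaling, which takes most miRs as equal, 6 were lower past the threshold (miR-127-3p, miR-434-3p, miR-379-5p, miR-382-5p, miR-411-5p and miR-434-5p) against 5.42% of all miRs, and with DESeq2 8 were lower (these 6, miR-541-5p and miR-136-5p) against 7.2%. Scaled to the total miR count, 4 were lower against 3.06% and 2 higher, miR-370-3p and miR-539-5p, against 12.0%. Groups did not overlap for 6 members lower in OXI-EVs, the 5 abundant ones and miR-411-5p, where 4.53% of all miRs did not, and for 2 members higher, where 3.7% did not. That count holds for mapped reads. As a percent of miR counts it was 4 lower and 7 higher, where 3.95% and 26.1% of all miRs did not overlap, and as a percent of miR counts other than miR-206-3p and miR-1a-3p it was 4 lower and 12 higher, where 2.68% and 46.3% did not. The 4 lower on each of these scales were miR-127-3p, miR-434-3p, miR-379-5p and miR-411-5p.

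Lower levels in OXI-EVs were common among the abundant miRs of the whole table. Among the 129 tested miRs with a mean count of at least 100, groups did not overlap and were lower in OXI-EVs for 44.2%, and 21.7% passed the threshold lower (51.2% with TMM scaling). The 5 abundant members had 5 of 5 without overlap, 1 of 5 past the threshold and 4 of 5 with TMM scaling. Their median log2 fold change was -1.52, and that of the 129 miRs was -1.12. Of the 35 tested members under 100, 11 had a log2 fold change below 0, and the median was 0.22, against 0.52 for the 1440 tested miRs under 100. With TMM scaling 21 of the 35 were below 0 (median -0.12), and on total miR counts 9 (median 0.82). The median over all 1569 tested miRs moved with the scale, being 0.48 on mapped reads, 0.09 with TMM and 0.98 on total miR counts, and that over the 40 members moved with it, being 0.17, -0.18 and 0.74.

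**Figure D3:**
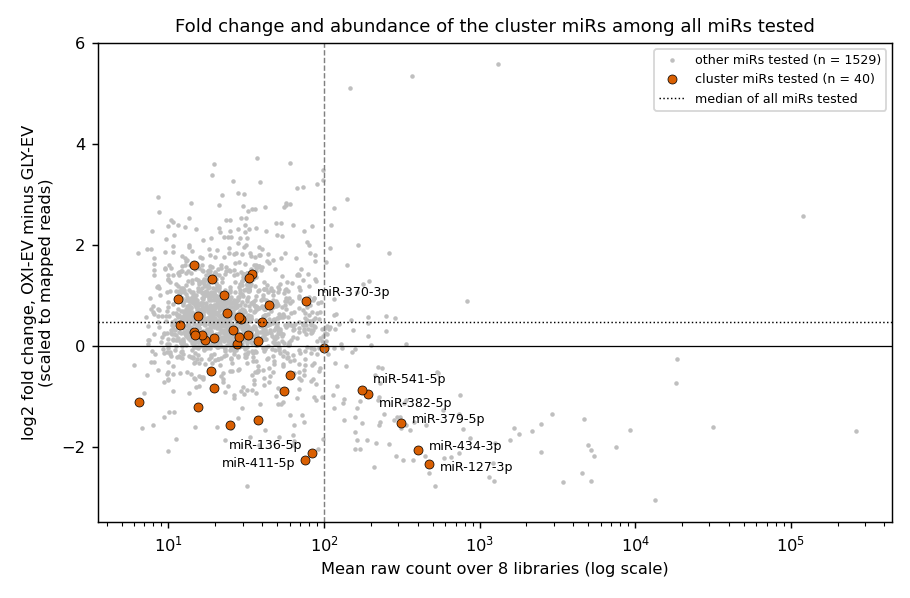
log2 fold change, OXI-EV minus GLY-EV on the scale of mapped reads, against the mean raw count (log axis) for all 1569 miRs tested, with the 40 cluster miRs as filled circles. The dashed line is at a mean count of 100 and the dotted line at the median of all miRs, 0.48; the 5 cluster miRs right of the dashed line lie between -2.34 and -0.88, among other abundant miRs that are mostly below 0.

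Several lists of miRs typical of other cell types had lower sums in OXI-EVs, like the abundant members. The muscle list was split, with miR-1a-3p (log2 fold change -1.69, adjusted p = 0.000261 by edgeR) and miR-133a-3p (-3.06, adjusted p = 0.0163) lower and miR-206-3p (2.58, adjusted p = 1.93e-05) higher in OXI-EVs. The summed CPM of 3 mesenchymal miRs was 112 to 222 in OXI-EVs and 529 to 1232 in GLY-EVs, that of 2 endothelial miRs 53.1 to 198 and 201 to 772, and that of 2 smooth muscle miRs 265 to 503 and 782 to 2031, with no overlap of the groups for these 3 lists. The 5 neural miRs summed to 21.4 to 184 in OXI-EVs and 35.9 to 193 in GLY-EVs, with overlap, and the neuronal miR-124-3p was at 0 in 4 of the 8 libraries. Sums of the leukocyte, erythroid and liver lists overlapped as well. The part of these cell types in the levels of the cluster was not tested, and in bulk vesicle RNA fewer vesicles of a cell type and less RNA per vesicle cannot be told apart.

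The make-up of the cluster differed between the muscles, along with a difference by abundance that ran through all miRs tested. On mapped reads, their median log2 fold change was -1.12 from a mean count of 100 and 0.52 under it. Shares within other sets of miRs were not computed. The abundant members held 38.1 ± 2.30% of the summed member counts in OXI-EVs and 65.2 ± 5.73% in GLY-EVs (SD, n = 4), with 35.9 to 40.4% against 58.9 to 72.8% in single libraries. miR-127-3p alone held 7.66 to 8.51% in single OXI-EV libraries and 18.7 to 23.1% in single GLY-EV libraries, and miR-434-3p 7.84 ± 1.25% and 16.8 ± 2.81%. These shares use no library size. By contrast the shares of miR-382-5p (7.23 ± 1.07% and 7.36 ± 1.35%) and miR-541-5p (6.63 ± 0.461% and 6.63 ± 1.18%) overlapped.

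Some ratios within a library separated the groups as well. For each count of miR-127-3p there were 0.780 to 1.04 counts of miR-382-5p in OXI-EVs and 0.287 to 0.482 in GLY-EVs. The ratio of miR-541-5p to miR-127-3p was 0.780 to 0.889 in OXI-EVs and 0.266 to 0.402 in GLY-EVs, and that of miR-379-5p to miR-127-3p 0.994 to 1.16 and 0.481 to 0.821. The ratio of miR-541-5p to miR-434-3p separated the groups too, with 0.649 to 1.03 and 0.299 to 0.545. Also higher in OXI-EVs without overlap were the ratios of miR-382-5p and miR-541-5p to miR-379-5p. Those of miR-411-5p to miR-382-5p and to miR-541-5p were lower in OXI-EVs without overlap. All other ratios between the members compared overlapped. That of miR-434-3p to miR-127-3p, both opposite Rtl1, was 0.822 to 1.20 in OXI-EVs and 0.737 to 0.889 in GLY-EVs. For miR-541-5p to miR-382-5p, both from the Mirg end, it was 0.854 to 1.00 and 0.833 to 1.01. Pairs from different ends could overlap too, with 0.827 to 1.38 and 0.541 to 1.12 for miR-379-5p to miR-434-3p, and 0.649 to 1.12 and 0.355 to 0.655 for miR-382-5p to miR-434-3p. The members compared were the abundant ones with miR-411-5p and miR-136-5p, and no test was run on these ratios.

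By position, the Rtl1 block took a smaller share of the cluster in OXI-EVs than in GLY-EVs. Nearly all of this difference in mean share lay in its abundant members, miR-127-3p and miR-434-3p. The Rtl1 block held 26.3 ± 2.62% of the summed member counts in OXI-EVs and 48.6 ± 4.95% in GLY-EVs, with 22.6 to 28.6% against 43.5 to 55.3% in single libraries. Of the same counts, miR-127-3p held 7.66 to 8.51% in single OXI-EV libraries and 18.7 to 23.1% in single GLY-EV libraries. The mean shares of miR-434-3p were 7.84% in OXI-EVs and 16.8% in GLY-EVs. By these means, the other members of the Rtl1 block together held a similar share of the counts in both groups. Their share in single libraries was not computed. The third block held 68.1 ± 3.74% and 49.5 ± 4.32%. Of the 10 tested members of the Rtl1 block, 8 had a log2 fold change below 0 with a median of -1.34, and of the 29 tested members of the third block 8 did, with a median of 0.22. With TMM scaling the counts were 9 of 10 (median -1.68) and 17 of 29 (median -0.10), and on total miR counts 8 of 10 (median -0.66) and 6 of 29 (median 0.82), so the counts below 0 depended on the scale. In the third block, log2 fold changes were below 0 for the 4 arms of its first 2 hairpins, Mir379 and Mir411, on mapped reads. Of these arms, miR-411-3p, at -0.04, changed sign with the scale. The rare miR-379-3p had 0 counts in 3 OXI-EV libraries and 1 GLY-EV library. The other members of the block below 0 were miR-299a-5p, from the next hairpin, miR-381-3p, miR-382-5p and miR-541-5p. Members of 1 block share a transcript and libraries, and the difference between blocks was not tested.

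**Figure D4:**
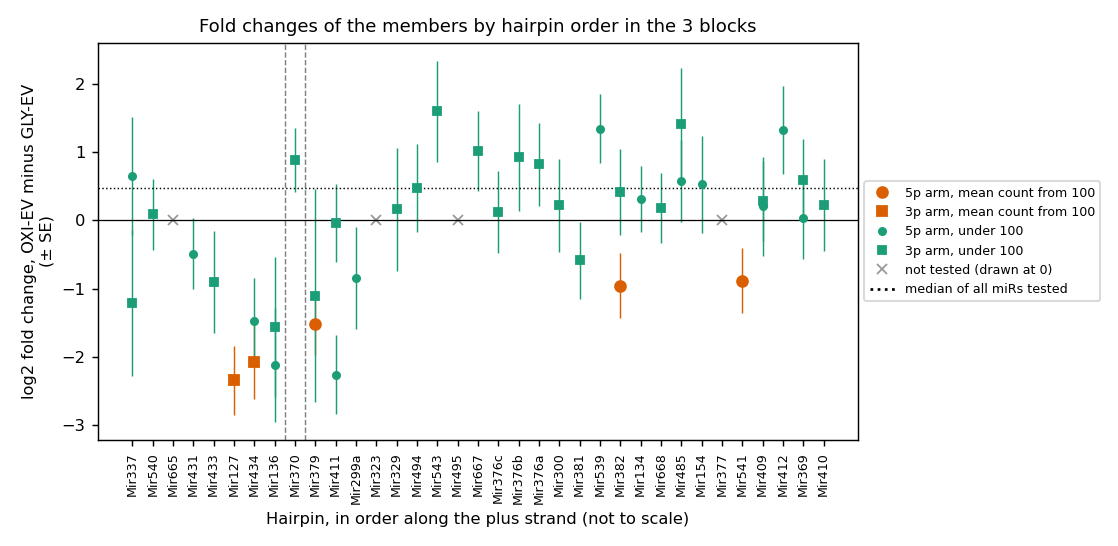
log2 fold change ± SE, OXI-EV minus GLY-EV on the scale of mapped reads, of each member by the order of its hairpin along the plus strand (not to scale), with dashed lines between the 3 blocks. Circles are 5p and squares 3p arms, large orange symbols have a mean count of at least 100, crosses were not tested; 8 of 10 tested members in the left block and 8 of 29 in the right one lie below 0.

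The sum over the cluster depended on its scale. The 44 members summed to 1549 ± 515 counts in OXI-EVs and 3879 ± 1547 in GLY-EVs (SD, n = 4), without overlap. Per 1000000 mapped reads they summed to 342.5 ± 105 and 647.5 ± 350, with overlap, a ratio of 1.89. They were 0.364 ± 0.0622% of miR counts in OXI-EVs and 0.475 ± 0.0869% in GLY-EVs, and 1.19 ± 0.168% and 1.18 ± 0.153% of miR counts other than miR-206-3p and miR-1a-3p, both typical of muscle. The sum of the 39 members under 100 overlapped on the mapped-read scale, with 213.7 ± 72.6 and 227.1 ± 129 CPM. Of miR counts other than miR-206-3p and miR-1a-3p it was 0.575 to 0.847% in OXI-EVs and 0.297 to 0.491% in GLY-EVs, higher in OXI-EVs without overlap.

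Under a mean count of 100, several members rested on a single library. This was not so for miR-411-5p, with log2 fold changes of -2.58 to -1.84 when any 1 library was left out, none past the threshold. miR-411-5p, from the second hairpin of the third block, had 10, 30, 14 and 26 counts in OXI-EVs and 131, 134, 61 and 194 in GLY-EVs. The lowest GLY-EV library lay above the highest OXI-EV library in CPM, and the log2 fold change of -2.26 (SE 0.57, adjusted p = 0.0805 by edgeR) was close to that of miR-127-3p. The other arm, miR-411-3p, had 85, 64, 58 and 117 counts in OXI-EVs and 277, 62, 58 and 75 in GLY-EVs. Its log2 fold change was -0.04 (adjusted p = 0.978 by edgeR), and 0.69 without GLY-EV replicate 1, the library with the high count.

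miR-433-3p, of the Rtl1 block, was high in the same library, with 32, 20, 24 and 46 counts in OXI-EVs and 213, 10, 31 and 65 in GLY-EVs. Its log2 fold change moved from -0.90 to 0.06 without GLY-EV replicate 1. miR-136-5p, also opposite Rtl1, had 7, 35, 30 and 34 counts in OXI-EVs and 45, 53, 75 and 390 in GLY-EVs. Here GLY-EV replicate 4 was high, and the log2 fold change of -2.12 (adjusted p = 0.275 by edgeR) became -0.61 (adjusted p = 0.458) without it.

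On mapped reads, miR-370-3p and miR-539-5p were the members with higher levels in OXI-EVs whose groups did not overlap, and they did not overlap as a percent of miR counts either. miR-370-3p, which represses CPT1A, the enzyme for mitochondrial fatty acid uptake, in human liver cells, had 55, 58, 85 and 157 counts in OXI-EVs and 70, 70, 61 and 58 in GLY-EVs, or 12.6 to 32.3 CPM against 9.73 to 11.2. Its log2 fold change was 0.89 (SE 0.47, adjusted p = 0.399 by edgeR). miR-539-5p had 67, 49, 26 and 29 counts in OXI-EVs and 21, 23, 26 and 23 in GLY-EVs, with a log2 fold change of 1.34 (SE 0.50, adjusted p = 0.263 by edgeR). In raw counts the groups of miR-370-3p overlapped and those of miR-539-5p met at 26. The largest positive log2 fold change among the members was that of miR-543-3p, 1.60 (SE 0.74, adjusted p = 0.338 by edgeR), from 13, 9, 12 and 49 counts in OXI-EVs and 3, 5, 12 and 14 in GLY-EVs. OXI-EV replicate 4 was its high library, without which the log2 fold change was 0.80 (adjusted p = 0.845).

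miR-381-3p had 14, 33, 59 and 56 counts in OXI-EVs and 90, 59, 45 and 124 in GLY-EVs (log2 fold change -0.58, adjusted p = 0.643 by edgeR), with overlap. Some rare members are named here for known roles, a choice made after their values were seen. miR-431-5p, which represses the satellite cell factor Pax7 in mouse muscle, had 11, 19, 6 and 16 counts in OXI-EVs and 20, 24, 23 and 32 in GLY-EVs. miR-494-3p, which represses factors of mitochondrial biogenesis in mouse myocytes, had 35, 68, 18 and 36 against 92, 13, 25 and 31. Both had groups that overlapped, as had miR-134-5p, which limits dendritic spine growth in rat neurons, with 14, 26, 26 and 35 counts against 20, 24, 24 and 39.

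The seed of the miR-376 family is known as a site of A-to-I RNA editing in brain. miR-376a-3p had 31, 48, 31 and 96 counts in OXI-EVs and 37, 18, 22 and 72 in GLY-EVs, and miR-376b-3p 8, 19, 11 and 16 against 16, 1, 9 and 12. The groups overlapped for both on the mapped-read scale, and the table does not separate edited from unedited reads. A count of 0 in at least 1 library was found for 7 members, and 4 members, miR-323-3p, miR-377-3p, miR-665-3p and miR-495-3p, were left out of the test by the filter. For these a library with 0 counts allows up to 3 counts, or 0.417 to 0.723 CPM over the 8 libraries, so that their absence from a library cannot be read from these data.

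Both arms were members for 9 hairpins, and the share of the 5p arm in the counts of both arms asks which strand of the duplex was found in the vesicles. The retained arm was plain for 3 of them. The 5p arm made up 97.9 ± 4.25% in OXI-EVs and 98.0 ± 1.52% in GLY-EVs for miR-379, 90.2 ± 2.07% and 95.7 ± 1.77% for miR-382, and 11.6 ± 5.81% and 8.18 ± 1.46% for miR-434 (SD, n = 4). The minor arms behind these shares were small, with 0, 13, 0 and 0 counts of miR-379-3p in OXI-EVs and 11, 0, 14 and 14 in GLY-EVs. miR-382-3p had 11, 10, 9 and 17 counts against 16, 11, 7 and 14, and miR-434-5p 6, 28, 12 and 19 against 41, 50, 37 and 110.

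The Mir411 hairpin, whose arms are printed above, had the largest shift of the 9 in mean share. In OXI-EV replicates 1 to 4 the 5p arm made up 10.5% (95% Wilson interval 5.82 to 18.3), 31.9% (23.4 to 41.9), 19.4% (12.0 to 30.0) and 18.2% (12.7 to 25.3) of 95, 94, 72 and 143 counts. In GLY-EV replicates 1 to 4 it made up 32.1% (27.8 to 36.8), 68.4% (61.6 to 74.5), 51.3% (42.4 to 60.1) and 72.1% (66.5 to 77.1) of 408, 196, 119 and 269 counts. The groups were adjacent but did not overlap, and OXI-EV replicate 2 and GLY-EV replicate 1 differed by less than their counting intervals. The means were 20.0 ± 8.86% and 56.0 ± 18.3% (exact permutation test, two-sided, p = 0.0286, the smallest that 4 against 4 allows, adjusted p = 0.264 over the 508 hairpins of the table with both arms tested). The shift came with the low counts of miR-411-5p in OXI-EVs, and GLY-EV replicate 1, the library closest to OXI-EV, was the one high in miR-411-3p.

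For miR-382 the groups did not overlap either (exact permutation test, p = 0.0286, adjusted p = 0.264), but the shares nearest each other, 92.0% (95% Wilson interval 85.9 to 95.6) in OXI-EV replicate 2 and 93.1% (89.0 to 95.7) in GLY-EV replicate 1, lay within each other's intervals. The share of the 5p arm did not overlap between groups in 2 of the 9 member hairpins and in 10.8% of the 508, and no hairpin of the table had an adjusted p under 0.264. Intervals cover counting error alone.

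miR-379, miR-434 and the 5 hairpins that follow overlapped between groups. miR-136 had 81.0 ± 21.9% of its counts in the 5p arm in OXI-EVs and 71.5 ± 12.2% in GLY-EVs, with 0, 23, 17 and 0 counts of miR-136-3p in OXI-EVs and 34, 27, 19 and 79 in GLY-EVs. The shares of miR-485 were 50.5 ± 16.4% and 55.0 ± 10.9%, those of miR-369 56.0 ± 14.6% and 67.1 ± 11.0%, those of miR-409 42.7 ± 23.8% and 53.9 ± 10.5%, and those of miR-337 73.6 ± 39.4% and 48.5 ± 3.23%. miR-485-3p owed its mean to 1 library, with 9, 23, 11 and 141 counts in OXI-EVs and 35, 17, 11 and 27 in GLY-EVs, and miR-485-5p had 8, 30, 24 and 60 against 24, 19, 21 and 42. miR-337-5p had 2, 21, 5 and 77 counts in OXI-EVs and 11, 17, 20 and 36 in GLY-EVs, and miR-337-3p 0, 6, 25 and 0 against 12, 15, 22 and 43. miR-369-5p had 8, 49, 13 and 22 counts in OXI-EVs and 25, 47, 20 and 35 in GLY-EVs, and miR-369-3p 10, 29, 17 and 8 against 21, 11, 11 and 16. miR-409-5p had 5, 15, 3 and 39 counts against 19, 12, 13 and 26, and miR-409-3p 12, 21, 10 and 12 against 14, 18, 7 and 23. Libraries of 1 group differed beyond counting error here, since the 5p share of miR-409 was 76.5% (95% Wilson interval 63.2 to 86.0) in OXI-EV replicate 4 and 23.1% (8.18 to 50.3) in OXI-EV replicate 3.

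**Figure D5:**
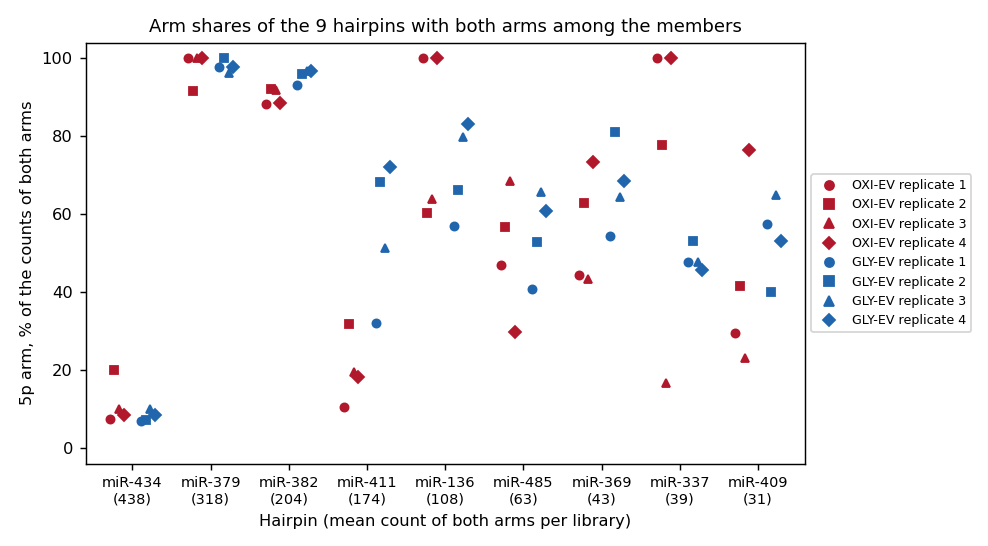
Share of the 5p arm, in percent of the counts of both arms, in each library for the 9 hairpins with both arms among the members, ordered by the mean count of both arms (in brackets). Red points are OXI-EV and blue GLY-EV libraries with shapes for replicates; the groups do not overlap for miR-382 and, from 31.9% to 32.1%, just separate for miR-411.

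The other miRs of the region gave no call when scaled to mapped reads. Of 69 further names of the cluster, 58 were in the table, 1 of them with a mean count of at least 100, and 51 were tested. Of these, 0 passed the adjusted threshold by edgeR, with TMM scaling or by DESeq2. When scaled to total miR counts 1 was higher in OXI-EVs, against 12.0% of all miRs tested. An unadjusted p under 0.05 was found for 1, against 5.42% of all miRs lower and 9.05% higher. Their median log2 fold change was 0.23. The most abundant was miR-323-5p, with 98, 106, 56 and 121 counts in OXI-EVs and 512, 50, 50 and 111 in GLY-EVs, again high in GLY-EV replicate 1. miR-341-3p had 30, 57, 26 and 133 against 118, 62, 138 and 103, and miR-1188-5p 44, 118, 88 and 80 against 74, 75, 58 and 121. No group of these further miRs stood apart on the mapped-read scale, with 0 of 51 free of overlap in either direction. Of all miRs tested, 4.53% were lower and 3.7% higher without overlap. Of the 1440 tested miRs under a mean count of 100, 14 were lower and 55 higher without overlap. By position, 53 other miRs lay between the outermost member hairpins and 46 were tested. Of these, 0 passed on mapped reads by edgeR, and 1 was lower in OXI-EVs with TMM scaling, against 5.42% of all miRs.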

How the data were processed

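Small RNA of 4 OXI-EV and 4 GLY-EV preparations was sequenced. The authors deposited raw counts, whole numbers for each miR or piRNA, made with cutadapt and STAR on GRCm38 (submitters' processing notes) from a kit with unique molecular identifiers; the counting tool is not given in the sources used here. The authors' log2 fold changes and their p-values, as deposited, are from their own comparison and were not used. The 72 piRNAs were left out.

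Counts of the 1755 miRs were tested with edgeR 4.0.16 (quasi-likelihood, limma 3.58.1, R 4.3.3) and the number of mapped reads as library size. A miR entered with 10 or more counts in 4 or more of the 8 libraries, which left 1569. Benjamini-Hochberg adjustment ran over these, with a threshold of 0.05. Standard errors are the log2 fold change over the root of the test statistic. CPM has molecules over reads, which raises libraries with few reads per count. On simulated counts with 200 miRs changed by a log2 fold of 2, 99% were recovered. That simulation set the same fixed dispersion for all miRs and used exact library sizes. It checks the code and does not give the share of such changes that these libraries would show. Muscle came from 1 leg per animal, unpooled. The study's methods pair the muscles for EV release, but for the libraries no source used here states which share a mouse, and p-values measure the spread between these libraries.

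Arm shares were compared by exact permutation over all hairpins. Members, lists and blocks were chosen with earlier results of these data known. Values are given by library for members with a mean count of at least 100 or past the threshold, for the 6 next in abundance, for paired arms and for those without overlap between groups. Hairpins were placed with GENCODE M21. Alternatives were TMM, total miR counts, DESeq2 1.42.0, no filter or a stricter one, and leaving out each library. Others were a block for the replicate number or for the description number, whose meaning is not given. Replicate 2 of each group shares its description number with no other library, so that block takes no contrast from it. Python 3.11.15 with pandas 2.3.3 was used.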

Additional observations from a re-analysis of the deposited data

Results flagged for a closer look

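Of the 52 groups of 4 libraries examined (25 members and their sum, in CPM), 10 had 1 library far from the other 3. Its gap to the nearest was most of the group's range (Dixon's criterion). For normally distributed values chance gives about 1 in 20 such groups. The CPM were not transformed and each flagged library was the high one, so the chance rate here is not known. GLY-EV replicate 4, the library with the fewest miR reads per count, was the high one in 6 miRs and in the sum, which are not independent of each other. It held 256.0 CPM of miR-127-3p (others 78.5 to 108.2), 123.2 of miR-379-5p (64.5 to 71.7), 80.9 of miR-382-5p (31.1 to 37.8), 75.3 of miR-136-5p (at most 13.1), 21.2 of miR-434-5p (5.92 to 6.95), 15.3 of miR-136-3p (3.33 to 4.91) and 1167 of the summed members (419.5 to 535.3). OXI-EV replicate 4 stood high with 29.0 CPM of miR-485-3p (others 2.07 to 5.54) and 10.1 of miR-543-3p (2.17 to 2.99), and OXI-EV replicate 2 with 3.13 of miR-379-3p, where the others had 0 counts.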

How the results depend on the processing

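The count of members past the threshold was 1, all lower in OXI-EV. It was 6 with TMM, 6 on total miR counts (4 lower, 2 higher), 8 with DESeq2 and 3 with a mean count of at least 100 as the filter. It was 2 with a replicate block (miR-127-3p and miR-434-3p), 2 with a block for the description number, and 0 to 1 without each library in turn. DESeq2 gave no adjusted p to some rare members, which were not counted. Of 14 members examined (the 13 with a printed fold change and miR-434-5p), 11 kept their direction under every alternative run. miR-411-3p turned from -0.04 to 0.36 on total miR counts, 0.21 with the replicate block and up to 0.69 (range -0.27 to 0.69) without 1 library. miR-381-3p came to 0.0004 on total miR counts, and miR-433-3p to 0.0598 (range -1.28 to 0.0598) without GLY-EV replicate 1. The log2 ratio of the summed level, OXI-EV over GLY-EV, was -0.92, 0.0093 as a percent of miR counts other than miR-206-3p and miR-1a-3p, and -1.08 to -0.47 without each library, the last without GLY-EV replicate 4. Arm shares without overlap numbered 2 to 3 hairpins without each library, and no member hairpin had both arms at a mean count of 100, so that filter gave no value. Deviations of libraries with the same replicate number correlated at 0.194, -0.268, -0.246 and 0.105, so the numbers were not taken as pairs. The libraries behind -0.268, replicate 2 of each group, have unequal description numbers. Not every library went best with its own number (OXI-EV replicate 3 and GLY-EV replicate 2, 0.579). Depth limits the 39 members under 100 counts, several of which rest on 1 library.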
